A study of Homo sapiens with 9 samples.

Results

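The IKK and TAK1 kinase complexes were followed through 10 genes, taken by symbol from the deposited gene table. The genes are CHUK, IKBKB and IKBKG, the IKK-related kinases TBK1 and IKBKE, MAP3K7 with its partners TAB1, TAB2 and TAB3, and MAP3K14. All 10 members were found among the 17083 genes of the table, and all 10 were among the 12924 genes with enough counts to test. RNA sequencing was done on 9 libraries of HEK293T, a human embryonic kidney line that expresses the SV40 large T antigen, labelled wild type in genotype and epithelial in cell type. There were 3 libraries overexpressing FLAG-tagged PLK2 (polo-like kinase 2), 3 overexpressing FLAG-tagged PLK2(D223N), a point mutant of the kinase, and 3 given the FLAG Vector alone (Vector). Replicates are described as biological. The sources used here do not give the promoter of the constructs, the time after their delivery, or whether each library was a separate transfection, so the p-values measure only the spread between these libraries. The series title ties PLK2 to IKKβ, the product of IKBKB, and to HSP90α.

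IKK is the kinase complex that releases NF-kB. In the canonical pathway, receptors for TNF, interleukin-1 or microbial products build ubiquitin chains that recruit TAK1, the product of MAP3K7, through the chain-binding adaptors TAB2 and TAB3, while TAB1 activates TAK1 directly. TAK1 phosphorylates IKKβ, which is held with IKKα (CHUK) by the scaffold NEMO (IKBKG), and IKKβ marks the inhibitor IκBα for destruction. In the non-canonical pathway NIK (MAP3K14) activates IKKα, which triggers processing of the NFKB2 precursor. TBK1 and IKKε (IKBKE) phosphorylate interferon regulatory factors and autophagy receptors. These kinases are controlled mainly by phosphorylation, ubiquitin and protein turnover, none of which was measured here.

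None of the 10 genes changed between the groups at an adjusted p below 0.05 with all 9 libraries in the fit. Fold changes, given as log2 values with their standard error (SE), came from edgeR's quasi-likelihood test on rounded estimated counts, with p-values adjusted by the Benjamini-Hochberg method over all 12924 genes. Between PLK2 and Vector, 0 of 10 members were called, beside 0.511% of all genes tested. Between PLK2(D223N) and Vector it was 0 of 10, beside 0.0232% of all genes, and between PLK2 and PLK2(D223N) it was 0 of 10, beside 0.162%. A test of the 3 groups together also called 0 of 10, beside 0.364% of all genes, and the member with the lowest p there was TAB2 (adjusted p = 0.359 by edgeR). With so small a share of all genes called, a count of 0 among 10 is near the background. At an unadjusted p below 0.05 there were 3 of 10 members between PLK2 and Vector (TBK1, TAB1 and TAB2), beside 16.4% of all genes. There were 0 of 10 between PLK2(D223N) and Vector, beside 8.53%, and 0 of 10 between PLK2 and PLK2(D223N), beside 6.04%. The DESeq2 Wald test called 0 of 10 members in each comparison, beside 1.11, 0.0696 and 0.286% of all genes in the same order. Limma on TPM called 0 of the 9 members it could test, beside 0.208, 0.0167 and 0.0667% on log2(TPM + 1). These zeros too are near the background.

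The intervals say how large a change the libraries leave room for. Leaving out IKBKE, which had few counts, the 95% intervals of the other 9 members lay between 0.761-fold and 1.29-fold for PLK2 over Vector. They lay between 0.790-fold and 1.21-fold for PLK2(D223N) over Vector, and between 0.802-fold and 1.23-fold for PLK2 over PLK2(D223N). The median log2 fold change of the 10 members was 0.05 for PLK2 against Vector, beside -0.0044 over all tested genes. For PLK2(D223N) against Vector it was 0.08 beside 0.0078, and for PLK2 against PLK2(D223N) it was -0.02 beside -0.0049. The comparisons with Vector share the Vector libraries and so are not independent of each other.

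**Figure D1:**
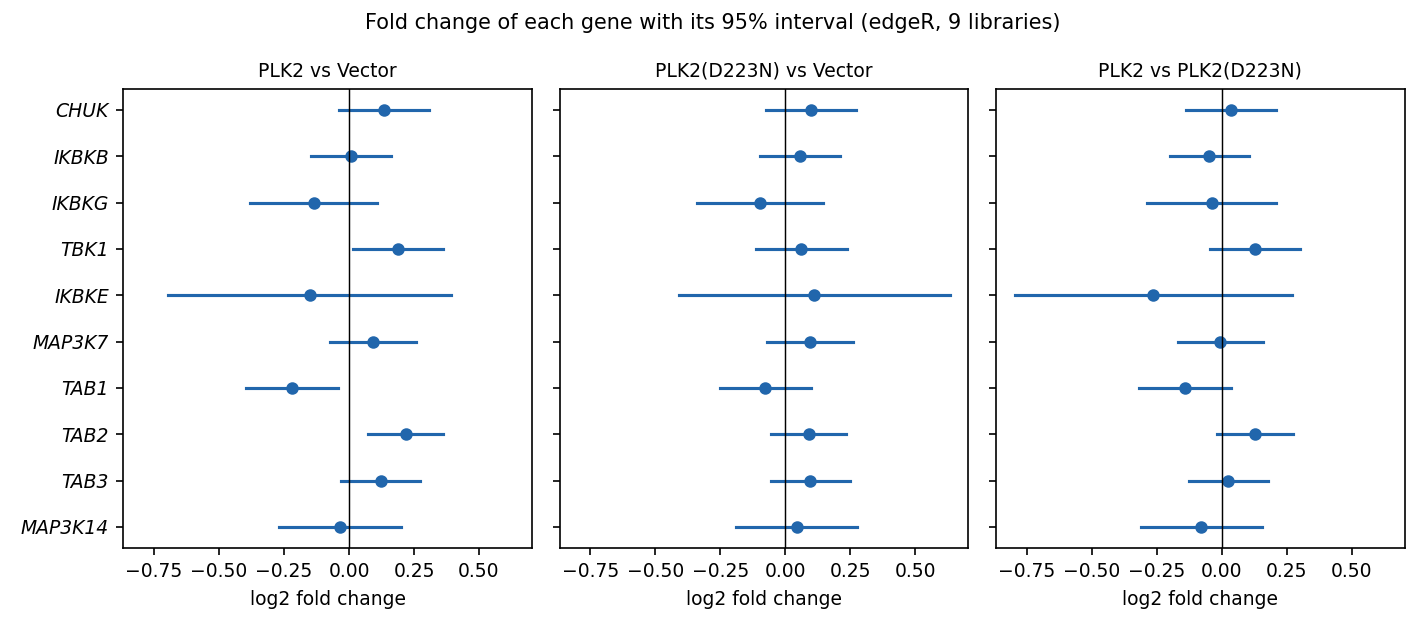
Log2 fold change of each of the 10 genes with its 95% interval from the edgeR fit to 9 libraries, for PLK2 over Vector, PLK2(D223N) over Vector and PLK2 over PLK2(D223N), on the same horizontal scale. Points lie between -0.22 and 0.22 for PLK2 over Vector, and IKBKE has the widest interval in each panel.

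The libraries behind these values held between 14288165 and 16510186 estimated counts each. PLK2 RNA followed the labels, at 23744 ± 2384 CPM (counts scaled to library size with TMM) in PLK2, 12358 ± 1650 CPM in PLK2(D223N) and 3.42 ± 0.64 CPM in Vector libraries (SD, n = 3 each), so the forms were not matched in RNA level. One Vector library stood apart from the other two. The chi-square per gene was 18.1 between Vector replicates 1 and 2 and 10.97 between replicates 1 and 3, against 2.71 between replicates 2 and 3 and 1.64 to 2.83 for the pairs within PLK2 and within PLK2(D223N). Values of marker genes are in CPM of each library's total, without the TMM factors. Of 10 markers of the line and of epithelia, 8 averaged above 1 CPM. Among them were VIM at 514 CPM, LIN28B at 246 CPM and the epithelial keratins KRT18 and KRT8 at 43.0 and 19.5 CPM. EPCAM and CDH1, also epithelial, were at 1.89 and 3.53 CPM, and NEFM and PAX2 were at 0.014 and 0.42 CPM. Of 9 macrophage and microglia markers 6 were in the table, and their sum was 2.98 to 3.24 CPM in PLK2, 1.42 to 2.62 CPM in PLK2(D223N) and 2.97 to 3.54 CPM in Vector libraries. As in any bulk RNA sample, fewer cells and less RNA per cell cannot be told apart.

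The members differed far more from each other than between the groups. Levels of different genes are given here per length, as the deposited TPM (abundance per transcript length, scaled to the library). CHUK had the highest level of the 10 in each of the 9 libraries, with a mean of 76.1 TPM, above 87.5% of the genes in the table. MAP3K7 (mean 55.8 TPM), TBK1 (50.9 TPM) and TAB2 (47.1 TPM) followed at ranks 2 to 4. MAP3K7 stood above TAB2 in every library, while TBK1 changed order with each of them, so TBK1 was not separated from either neighbour beyond the spread. TAB1 (21.7 TPM), TAB3 (20.9 TPM) and IKBKB (19.2 TPM) held ranks 5 to 7, and each changed order with the other two. IKBKG (11.1 TPM), MAP3K14 (3.26 TPM) and IKBKE (0.857 TPM) held ranks 8, 9 and 10 in every library. IKBKE lay above 28.7% of the genes in the table.

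**Figure D2:**
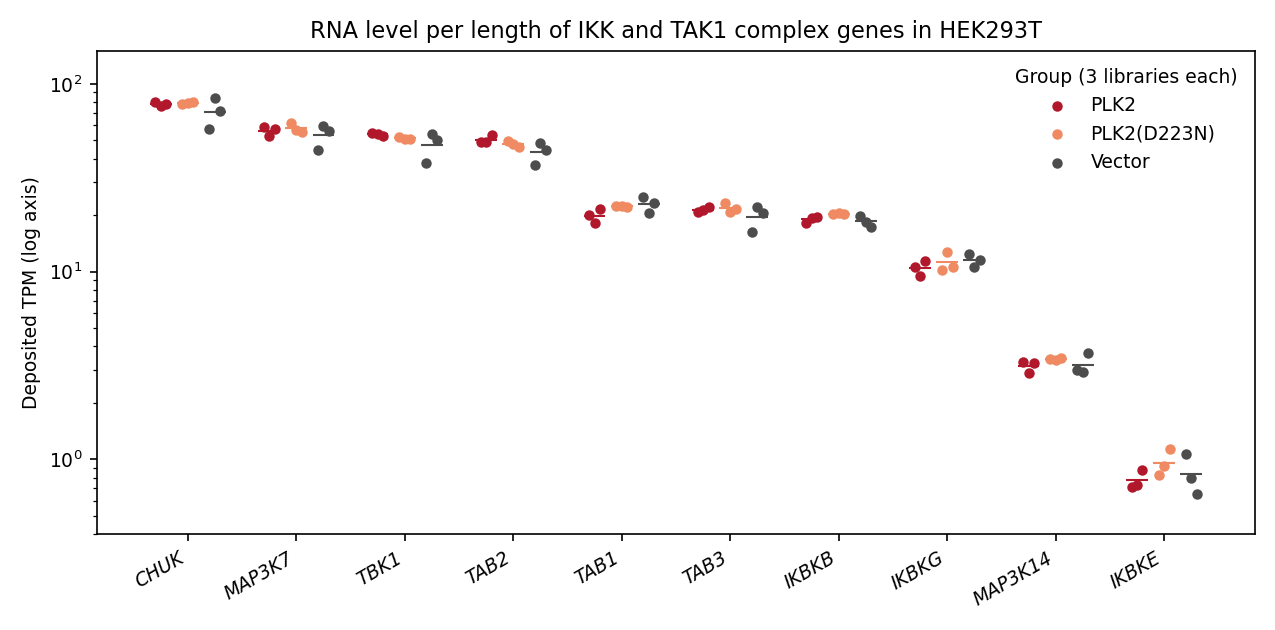
Deposited TPM (log axis) of the 10 genes in each library, ordered by their mean, with PLK2, PLK2(D223N) and Vector libraries side by side and a bar at each group's mean (3 libraries each). The genes span from 0.65 TPM (IKBKE) to 83.97 TPM (CHUK), and the lowest point of CHUK, MAP3K7, TBK1, TAB2 and TAB3 is the same Vector library.

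The start-site regions of CHUK, MAP3K7, TBK1 and TAB2, the 4 most abundant members, whose values were lowest in the same library as described further on, are shown with that of IKBKE, the least abundant. The windows come from RefSeq (GRCh38.p14) and run from 250 bases before the annotated start to 50 bases after it. They are chr10:100229547-100229846 on the minus strand for CHUK, chr12:64451870-64452169 on the plus strand for TBK1, chr6:90587023-90587322 on the minus strand for MAP3K7, chr6:149317462-149317761 and chr6:149318050-149318349 on the plus strand for the 2 starts of TAB2, and chr1:206470226-206470525 on the plus strand for IKBKE. Capitals mark the ETS core, searched as CCGGAAGT on both strands, the motif bound by ETS-family factors.
CHUK: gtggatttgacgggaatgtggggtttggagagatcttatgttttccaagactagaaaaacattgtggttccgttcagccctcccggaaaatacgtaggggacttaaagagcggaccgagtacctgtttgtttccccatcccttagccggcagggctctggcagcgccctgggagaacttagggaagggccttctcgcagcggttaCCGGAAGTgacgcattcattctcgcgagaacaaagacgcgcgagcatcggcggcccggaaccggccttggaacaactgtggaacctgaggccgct
TBK1: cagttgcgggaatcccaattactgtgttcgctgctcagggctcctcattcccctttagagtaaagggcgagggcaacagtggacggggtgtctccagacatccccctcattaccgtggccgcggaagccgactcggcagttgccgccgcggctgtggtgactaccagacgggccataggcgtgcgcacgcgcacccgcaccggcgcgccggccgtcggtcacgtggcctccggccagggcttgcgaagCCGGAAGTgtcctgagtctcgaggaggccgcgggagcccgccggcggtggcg
MAP3K7: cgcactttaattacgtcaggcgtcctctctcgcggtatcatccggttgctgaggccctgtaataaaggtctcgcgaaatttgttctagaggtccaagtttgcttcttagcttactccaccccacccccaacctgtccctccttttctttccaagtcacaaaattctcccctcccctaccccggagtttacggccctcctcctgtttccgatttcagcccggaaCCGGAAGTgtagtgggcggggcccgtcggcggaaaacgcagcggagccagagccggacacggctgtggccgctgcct
TAB2 first start: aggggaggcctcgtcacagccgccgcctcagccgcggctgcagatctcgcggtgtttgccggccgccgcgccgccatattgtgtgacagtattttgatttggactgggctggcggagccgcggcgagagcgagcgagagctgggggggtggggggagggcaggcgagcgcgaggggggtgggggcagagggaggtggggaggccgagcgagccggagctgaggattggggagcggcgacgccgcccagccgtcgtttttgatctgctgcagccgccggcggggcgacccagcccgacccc
TAB2 second start: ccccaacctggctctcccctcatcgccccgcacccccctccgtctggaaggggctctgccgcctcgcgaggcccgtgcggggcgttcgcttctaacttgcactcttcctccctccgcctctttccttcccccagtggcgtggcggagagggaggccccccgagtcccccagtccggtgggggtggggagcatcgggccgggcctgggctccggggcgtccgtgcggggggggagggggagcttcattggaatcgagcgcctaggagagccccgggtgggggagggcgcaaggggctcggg
IKBKE: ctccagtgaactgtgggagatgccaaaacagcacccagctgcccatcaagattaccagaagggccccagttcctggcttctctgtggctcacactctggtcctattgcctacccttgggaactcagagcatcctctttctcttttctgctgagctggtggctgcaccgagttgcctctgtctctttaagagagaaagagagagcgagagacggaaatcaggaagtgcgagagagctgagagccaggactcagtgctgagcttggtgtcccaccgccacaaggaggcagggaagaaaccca

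The ETS core lies 45 bases before the start in CHUK, 27 before it in MAP3K7 and 2 before it in TBK1, and the windows of TAB2 and IKBKE do not hold it. Member windows on chromosome 8 were left out of this search, and IKBKB is the member that lies there. No window of IKBKB was searched, so its matches are not known here. The ETS core was in windows of 4 of the 9 members searched, the fourth being IKBKG in 1 of its windows. It was in 4.14% of all 35114 promoter windows of the same length. The consensus site of NF-kB, searched by its name on both strands, was found in 1 of these 9 members, TAB2, and in 11.3% of all windows. It matched 3 times in the second TAB2 window, where it is not marked, and in none of the other windows shown. Members were counted by gene and the background by window, and some members have several windows, so these counts and shares are not directly comparable. Such matches describe the letters only.

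Of the kinases that phosphorylate IκB, CHUK encodes IKKα, the kinase that non-canonical signalling needs. It lies on chromosome 10, 100188298 to 100229619 (GRCh38, GENCODE release 29). CHUK was at 149.4, 145.6 and 141.5 CPM in PLK2 libraries, at 140.03, 141.3 and 144 CPM in PLK2(D223N) libraries, and at 112, 152.1 and 133.8 CPM in Vector libraries. The Vector libraries thus spanned the values of both other groups, with replicate 1 below every other library. The log2 fold change was 0.14 for PLK2 over Vector (SE 0.08, adjusted p = 0.397 by edgeR) and 0.10 for PLK2(D223N) over Vector (SE 0.08, adjusted p = 0.672). PLK2 over PLK2(D223N) gave 0.04 (SE 0.08).

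IKBKB, on chromosome 8, 42271302 to 42332653, encodes IKKβ, the kinase of the series title and the one that carries canonical signalling. Its values were 35.5, 38.5 and 36.8 CPM in PLK2 libraries, 37.9, 38.3 and 38.2 CPM in PLK2(D223N) libraries, and 40.9, 35.4 and 33.7 CPM in Vector libraries. All groups overlapped, and the PLK2(D223N) libraries were the closest to each other, with an SD of 0.179 CPM. For PLK2 over Vector the log2 fold change was 0.01 (SE 0.07, adjusted p = 0.962 by edgeR), with a 95% interval of 0.904-fold to 1.12-fold. For PLK2(D223N) over Vector it was 0.06 (SE 0.07), and for PLK2 over PLK2(D223N) it was -0.05 (SE 0.07).

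IKBKG, on chromosome X, 154541199 to 154565046, encodes NEMO, the ubiquitin-binding scaffold that has no kinase activity. It has a near-identical pseudogene nearby, so its counts are uncertain. IKBKG was at 9.37, 8.91 and 10.03 CPM in PLK2 libraries, at 8.69, 11.1 and 9.28 CPM in PLK2(D223N) libraries, and at 11.6, 9.09 and 10.3 CPM in Vector libraries. The groups overlapped, and the log2 fold change for PLK2 over Vector was -0.14 (SE 0.12, adjusted p = 0.546 by edgeR).

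Within the trio, CHUK made up most of the RNA per length. Its share of the summed TPM of CHUK, IKBKB and IKBKG was 72.7 ± 1.00% in PLK2, 71.5 ± 0.996% in PLK2(D223N) and 70.0 ± 5.19% in Vector libraries (SD, n = 3 each). CHUK stood at 4.14 ± 0.25 times the TPM of IKBKB in PLK2, 3.89 ± 0.05 times in PLK2(D223N) and 3.88 ± 0.85 times in Vector libraries. The Vector values were the most spread, from 2.92 in replicate 1 to 4.55 at the highest. A ratio of RNA levels gives no ratio of proteins in the complex, where IKKα and IKKβ can pair with each other or with themselves.

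TBK1, on chromosome 12, 64451880 to 64502108, encodes the kinase that activates IRF3 downstream of nucleic acid sensors. TBK1 was at 83.8, 84.9 and 79.7 CPM in PLK2 libraries, at 76.4, 74.8 and 76.1 CPM in PLK2(D223N) libraries, and at 60.6, 80.7 and 76.96 CPM in Vector libraries. Each PLK2 library lay above each PLK2(D223N) library, while PLK2 and Vector libraries overlapped, with Vector replicate 2 above PLK2 replicate 3. The log2 fold change was 0.19 for PLK2 over Vector (SE 0.08, adjusted p = 0.281 by edgeR), 0.06 for PLK2(D223N) over Vector (SE 0.08) and 0.13 for PLK2 over PLK2(D223N) (SE 0.08, adjusted p = 0.906).

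IKBKE, on chromosome 1, 206470476 to 206496889, encodes IKKε, a relative of TBK1 that is inducible and prominent in immune cells. Only a few molecules were sampled. It had 18, 20 and 22 estimated counts in PLK2 libraries, 21, 23 and 30 in PLK2(D223N) libraries, and 31, 19 and 17 in Vector libraries. The groups overlapped, and the 95% interval for PLK2 over Vector ran from 0.617-fold to 1.31-fold, so changes within that range are not excluded. TBK1 took 98.6 ± 0.19% of the summed TPM of the pair in PLK2, 98.2 ± 0.31% in PLK2(D223N) and 98.2 ± 0.80% in Vector libraries (SD, n = 3 each).

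MAP3K7, on chromosome 6, 90513573 to 90587045, encodes TAK1, the kinase that activates both IKKβ and the MAP kinase kinases. Its values were 117.1, 110.4 and 115.2 CPM in PLK2 libraries, 121.3, 111.7 and 110.8 CPM in PLK2(D223N) libraries, and 92.2, 119.2 and 110.8 CPM in Vector libraries. As with CHUK, Vector replicate 1 was the lowest of all, and the remaining libraries overlapped. The log2 fold change was 0.09 for PLK2 over Vector (SE 0.08, adjusted p = 0.549 by edgeR), 0.10 for PLK2(D223N) over Vector (SE 0.08) and -0.0046 for PLK2 over PLK2(D223N) (SE 0.08).

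The partners of TAK1 moved in different directions, none past the threshold. TAB2, on chromosome 6, 149218641 to 149411613, encodes an adaptor that reads ubiquitin chains. TAB2 was at 113.1, 115.4 and 119.6 CPM in PLK2 libraries, at 109.1, 106.2 and 103.3 CPM in PLK2(D223N) libraries, and at 88.4, 109.3 and 102.1 CPM in Vector libraries. Each PLK2 library lay above each library of the other groups. The log2 fold change was 0.22 for PLK2 over Vector (SE 0.07, adjusted p = 0.165 by edgeR) and 0.13 for PLK2 over PLK2(D223N) (SE 0.07, adjusted p = 0.866).

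TAB1, on chromosome 22, 39399741 to 39437060, encodes the partner that turns on TAK1 by direct contact. TAB1 was at 31.6, 29.7 and 33.3 CPM in PLK2 libraries, at 34.96, 34.8 and 34.7 CPM in PLK2(D223N) libraries, and at 41.6, 32.1 and 36.1 CPM in Vector libraries. Each PLK2 library lay below each PLK2(D223N) library, while PLK2 and Vector libraries overlapped. The log2 fold change was -0.22 for PLK2 over Vector (SE 0.08, adjusted p = 0.226 by edgeR) and -0.14 for PLK2 over PLK2(D223N) (SE 0.08, adjusted p = 0.888).

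TAB3, on chromosome X, 30827442 to 30975084, encodes a relative of TAB2 that binds the same chains. It was at 71.5, 74.2 and 73.7 CPM in PLK2 libraries, at 74.6, 68.8 and 72.2 CPM in PLK2(D223N) libraries, and at 59.4, 74.3 and 68.2 CPM in Vector libraries. The groups overlapped, with Vector replicate 1 again the lowest, and PLK2 over Vector gave 0.12 (SE 0.07, adjusted p = 0.388 by edgeR). TAB2 made up 54.9 ± 0.41% of the summed TPM of the TAB trio in PLK2, 51.9 ± 0.68% in PLK2(D223N) and 50.4 ± 2.99% in Vector libraries (SD, n = 3 each). The 3 PLK2 libraries, at 54.6 to 55.4%, lay above the 51.2 to 52.53% of PLK2(D223N) and the 47.3 to 53.2% of Vector, with no test made of this share.

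MAP3K14, on chromosome 17, 45263119 to 45317145, encodes NIK, which in resting cells is kept low by constant degradation of the protein. MAP3K14 was at 7.72, 6.86 and 7.46 CPM in PLK2 libraries, at 7.70, 7.65 and 7.93 CPM in PLK2(D223N) libraries, and at 7.31, 6.66 and 8.54 CPM in Vector libraries. The groups overlapped, and the log2 fold change was -0.03 for PLK2 over Vector (SE 0.11, adjusted p = 0.891 by edgeR). Per length, MAP3K7 stood at 17.9 ± 0.35 times the TPM of MAP3K14 in PLK2, 16.9 ± 1.07 times in PLK2(D223N) and 16.8 ± 3.13 times in Vector libraries.

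Separation of the libraries was common across the transcriptome. Between PLK2 and Vector, the libraries did not overlap for 1 of 10 members (TAB2, higher), beside 20.1% of all tested genes. Between PLK2(D223N) and Vector it was 0 of 10 members, beside 13.9%. Between PLK2 and PLK2(D223N) it was 3 of 10 members, TBK1 and TAB2 higher and TAB1 lower, beside 20.5%. These shares among the members are of the order of the background.

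The members split by base composition, most widely in Vector replicate 1. CHUK, MAP3K7, TAB3, TBK1 and TAB2 have a longest transcript of 36.3 to 39.8% GC, and all 5 were lowest in Vector replicate 1, by 0.25 to 0.34 log2 units below their own mean over the 9 libraries. The other 5 members have 50.3 to 62.6% GC, and there IKBKB, IKBKE, TAB1 and IKBKG lay 0.14, 0.39, 0.28 and 0.24 log2 units above their mean, with MAP3K14 at -0.04. Vector replicate 2 showed the opposite split, smaller in size, with all 5 low-GC members above their mean, by 0.030 (TAB2) to 0.12 log2 units (CHUK). The 5 members with more GC lay below theirs, at -0.057 (IKBKE) to -0.17 (MAP3K14). Vector replicate 1 had a median deviation of -0.26 over all 2118 tested genes below 40% GC and of 0.15 over the 1829 genes at or above 60%, where Vector replicate 2 had 0.049 and -0.080. Vector replicate 3 had -0.020 and -0.0070. The PLK2 libraries leaned the same way as Vector replicate 2, with 0.059, 0.069 and 0.038 below 40% GC and -0.035, -0.056 and -0.0088 at or above 60%. The PLK2(D223N) libraries had 0.027, 0.016 and 0.014, and 0.031, 0.029 and 0.010. The division at these GC values was chosen after the values were seen, and is given as a description. Whether the pattern stems from the culture, the RNA or the library was not tested.

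**Figure D3:**
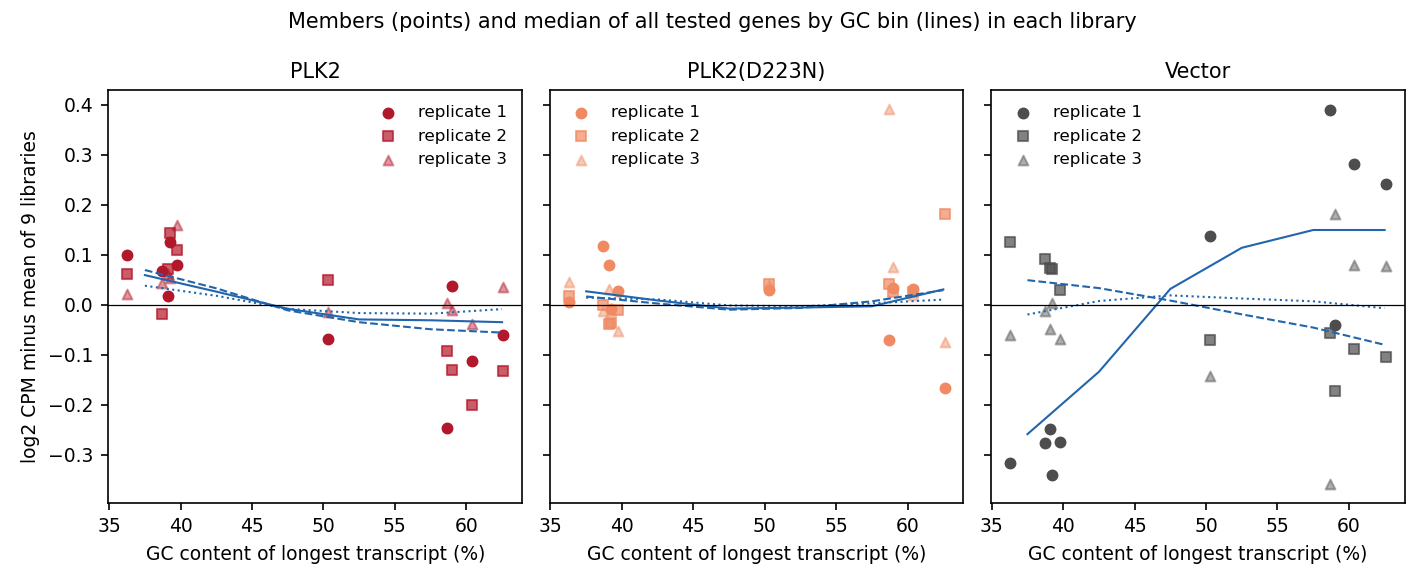
Deviation of each gene's log2 CPM from its mean over 9 libraries (vertical) against the GC content of its longest transcript in percent (horizontal), for the 10 members (points) in PLK2, PLK2(D223N) and Vector libraries. Lines give the median of all tested genes by GC bin (solid for replicate 1, dashed for 2, dotted for 3), and in Vector replicate 1 the line climbs from -0.26 to 0.15 with the members below 40% GC at its low end.

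The signs of PLK2 over Vector followed the same division, and those of PLK2(D223N) over Vector did so in part. Those of PLK2 over PLK2(D223N), a comparison without the Vector group, also followed it. For PLK2 over Vector, 5 of 5 members below 40% GC lay above 0, with a median of 0.14, and so did 89.6% of all 2118 genes below 40% GC, with a median of 0.12. Of the members with more GC, 1 of 5 lay above 0, beside 27.9% of all 5712 genes with at least 50% GC. For PLK2(D223N) over Vector, 5 of 5 low-GC members lay above 0, beside 84.1% of all genes of that class, and so did 3 of 5 members with more GC (median 0.04), beside 39.7%. For PLK2 over PLK2(D223N), 4 of 5 low-GC members lay above 0, beside 70.3%, and 0 of 5 members with more GC, beside 33.8%. With the trends of GC content and length removed from each library, an alternative added after seeing the data, the 5 low-GC members had a median of 0.0049 for PLK2 over Vector and 3 of 5 lay above 0. CHUK then stood at -0.0062 (adjusted p = 0.958 by edgeR) and TBK1 at 0.08 (adjusted p = 0.328). TAB2 stood at 0.12 (adjusted p = 0.0998) and TAB1 at -0.17 (adjusted p = 0.106), so their directions remained. No member was called for PLK2 over Vector, beside 2.95% of all genes. For PLK2 over PLK2(D223N), 4 of 5 low-GC members and 1 of 5 members with more GC then lay above 0.

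Spread within a group was largest in Vector for 9 of 10 members. The coefficient of variation of CPM ran from 1.95 to 9.51% over the members in PLK2 (median 3.69%), from 0.426 to 18.7% in PLK2(D223N) (median 2.32%) and from 10.3 to 28.9% in Vector libraries (median 12.8%). Removing the GC and length trends narrowed the Vector SD of log2 CPM for 9 of 10 members, and the Vector group remained the most variable for 6 of 10.

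Single Vector libraries also decided calls. Without Vector replicate 2, which leaves replicates 1 and 3 to stand for the group, CHUK (0.24, adjusted p = 0.0205 by edgeR), TBK1 (0.27, adjusted p = 0.0254) and TAB2 (0.29, adjusted p = 0.0082) passed as higher in PLK2 than in Vector, and TAB1 (-0.30, adjusted p = 0.0142) as lower. In that fit 12.7% of all genes were called. Without Vector replicate 1 none of the 10 members was called in PLK2 against Vector, beside 2.79% of all genes. In a fit to the 6 PLK2 and PLK2(D223N) libraries alone, TBK1 (0.13, adjusted p = 0.0489) and TAB2 (0.13, adjusted p = 0.0200) passed as higher in PLK2, and 3.92% of all genes were called there. The test of the 3 groups together called 1 member (TAB2) without Vector replicate 1, beside 3.03% of all genes, and 3 members (CHUK, TAB1 and TAB2) without Vector replicate 2, beside 6.77%.

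The genes with profiles most like those of the central kinases were named by the smallest root mean square difference in mean-centred log2 CPM over the 9 libraries, among genes with at least 10 CPM and at least the same spread. For IKBKB, out of 5674 genes, these were IFFO1 (difference 0.032), UCKL1 (0.037) and RFXANK (0.042). For MAP3K7, out of 2699 genes, they were CCDC138 (0.024), REST (0.024) and SELENOI (0.029). The libraries share their depth and base-composition trends, and the neighbours of IKBKB have 56.8 to 61.7% GC while those of MAP3K7 have 38.4 to 44.2%.

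Around the complexes, lists of 60 distinct tested genes upstream, downstream and alongside were read from the same fit. These lists were drawn up with earlier results of these data known. In PLK2 against Vector 4 of the 60 rose (RELB, NFKB2, TNFAIP3 and CYLD) and 0 fell, beside 0.511% of all genes called, and DESeq2 also called REL and NFKBIA. In PLK2 against PLK2(D223N) 5 rose (the same 4 and NFKBIA) and 0 fell, beside 0.162%. Limma on log2(TPM + 1) could test 57 of the 60, and in each of these comparisons called only RELB, NFKB2 and TNFAIP3. That stood beside 0.208% of all genes against Vector and 0.0667% against PLK2(D223N). In PLK2(D223N) against Vector edgeR and DESeq2 each called 0 of 60, beside 0.0232% of all genes by edgeR and 0.0696% by DESeq2. At an unadjusted p below 0.05 by edgeR there were 3 of 60, beside 8.53% of all genes. All genes that passed were NF-kB subunits, their inhibitor, or brakes on IKK, several of which are known transcriptional targets of NF-kB.

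Among the 8 NF-kB subunits and IκB inhibitors, 2 rose in PLK2 against Vector and 3 in PLK2 against PLK2(D223N). RELB, the partner of p52 in non-canonical signalling, was at 5.95, 6.03 and 5.33 CPM in PLK2 libraries, at 1.304, 1.54 and 1.29 CPM in PLK2(D223N) libraries, and at 1.43, 1.87 and 1.72 CPM in Vector libraries. It was the gene of these lists furthest from 0, with a log2 fold change of 1.79 over Vector and 2.06 over PLK2(D223N) (SE 0.16 each, adjusted p = 1.69e-05 and 1.14e-05 by edgeR). NFKB2, the precursor that IKKα causes to be processed, was at 16.6, 16.03 and 15.99 CPM in PLK2 libraries, at 11.4, 10.99 and 10.3 CPM in PLK2(D223N) libraries, and at 12.1, 10.1 and 10.9 CPM in Vector libraries. Its log2 fold change was 0.55 over Vector and 0.57 over PLK2(D223N) (SE 0.09 each). NFKB2 lost its call over Vector without PLK2 replicate 1, 2 or 3 (highest adjusted p = 0.0666 by edgeR), and passed over PLK2(D223N) in 13 of 19 alternatives.

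NFKBIA, which encodes IκBα, the main substrate of IKKβ, was at 23.7, 21.9 and 22.3 CPM in PLK2 libraries, at 16.5, 17.1 and 15.4 CPM in PLK2(D223N) libraries, and at 18.9, 14.98 and 17.3 CPM in Vector libraries. Its log2 fold change was 0.47 over PLK2(D223N) (SE 0.09, adjusted p = 0.0388 by edgeR) and 0.40 over Vector (SE 0.09, adjusted p = 0.0511). The call over PLK2(D223N) held in 10 of 19 alternatives. It was lost without any 1 of the PLK2 or PLK2(D223N) libraries, without Vector replicate 3 and in both TPM fits (highest adjusted p = 0.343).

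Of the 7 tested brakes on IKK, 2 rose in both comparisons of PLK2. TNFAIP3, the ubiquitin-editing enzyme A20 that dampens IKK, was at 18.9, 16.5 and 18.1 CPM in PLK2 libraries, at 8.51, 9.32 and 8.97 CPM in PLK2(D223N) libraries, and at 6.89, 8.32 and 8.11 CPM in Vector libraries. On the log2 scale the difference was 1.201 over Vector (SE 0.09, adjusted p = 6.49e-06 by edgeR) and 1.00 over PLK2(D223N) (SE 0.09, adjusted p = 3.72e-05). CYLD, a deubiquitinase that trims the chains read by NEMO and TAB2, was at 89.3, 85.4 and 87.1 CPM in PLK2 libraries, at 68.9, 71.9 and 67.9 CPM in PLK2(D223N) libraries, and at 60.3, 69.4 and 66.6 CPM in Vector libraries. CYLD stood at 0.42 over Vector and 0.33 over PLK2(D223N) (SE 0.06 each). CYLD passed in 17 of 19 alternatives over Vector, where it was lost in both TPM fits (highest adjusted p = 0.170 by limma). Over PLK2(D223N) it passed in 9 of 19. That call was lost without any 1 of the PLK2 or PLK2(D223N) libraries and without Vector replicate 3. It was also lost in both TPM fits and with the replicate block (highest adjusted p over those alternatives 0.371).

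The 6 other lists held 0 called genes in each comparison by edgeR, and 0 by DESeq2, beside at most 0.511% and 1.11% of all genes. At an unadjusted p below 0.05 in PLK2 against Vector they held 2 of 11 MAP kinase genes, 1 of 14 upstream genes and 3 of 7 TBK1 partners, beside 16.4% of all genes. Among 11 MAP kinases and kinases below TAK1, the smallest p in PLK2 against Vector were those of MAP2K3, which activates p38 (-0.16, SE 0.07), and MAPK8, which encodes JNK1 (0.14, SE 0.06). Among 8 other MAP3K genes they were those of MAP3K2 (0.16, SE 0.08) and MAP3K20 (0.11, SE 0.06). Of 14 tested genes upstream of TAK1 and IKK, RIPK1, the kinase of the TNF receptor complex, stood at -0.18 (SE 0.06) and the ligase RNF31 at -0.12 (SE 0.06). The adjusted p of these 6 genes lay between 0.208 and 0.387 by edgeR.

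TBK1 partners had 7 tested genes, led by the autophagy receptor OPTN and the adaptor AZI2. OPTN was at 32.9, 31.9 and 33.04 CPM in PLK2 libraries, at 28.5, 25.7 and 28.1 CPM in PLK2(D223N) libraries, and at 27.7, 27.96 and 27.8 CPM in Vector libraries. Each PLK2 library lay above each of the others, as for TAB2, with a log2 fold change of 0.23 over Vector (SE 0.06, adjusted p = 0.120 by edgeR). AZI2 was at 0.16 over Vector (SE 0.06, adjusted p = 0.209). Among 4 tested genes that control NIK stability, BIRC2 (0.09, SE 0.06) and OTUD7B (0.08, SE 0.05) had the smallest p. Of the 3 chaperone genes, HSP90AA1, which encodes HSP90α, was at 0.13 (SE 0.06, adjusted p = 0.330) and HSP90AB1 at -0.05 (SE 0.05).

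**Figure D4:**
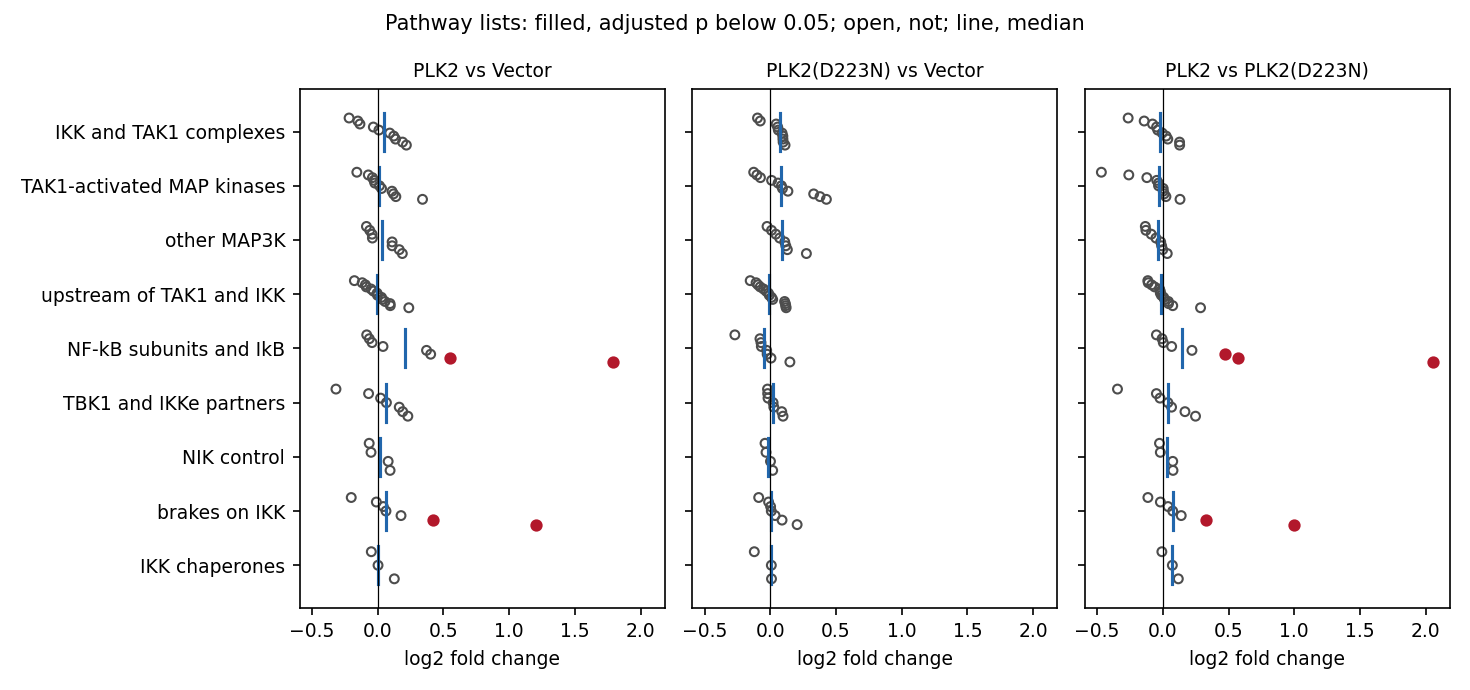
Log2 fold change of every tested gene in the complexes and in 8 lists around them, for PLK2 over Vector, PLK2(D223N) over Vector and PLK2 over PLK2(D223N). Filled points passed an adjusted p below 0.05, open points did not, and blue lines are list medians. Filled points lie only in the rows of NF-kB subunits and of brakes on IKK, up to 2.06 for RELB.

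Some members share their place in the genome with other genes, which bears on how reads were assigned. In GENCODE release 29 CHUK overlaps ERLIN1 on the same strand, and CHUK, TBK1, IKBKE, TAB3 and MAP3K14 each overlap an antisense transcript that the table does not list. The sources used here do not say whether counting used the strand, so reads of a gene and of its antisense partner cannot be told apart.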

How the data were processed

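RNA was measured in 9 HEK293T libraries, grouped by their treatment labels, 3 each with PLK2, PLK2(D223N) and Vector. Libraries were made from RNA captured on oligo(dT) beads, per the labels' protocols. The build was GRCh38.p13 and the tools were Bowtie2, DESeq2 1.4.5 and RSEM 1.3.1, per the submitters' processing notes. How each tool was used, and with which annotation and strandedness, is not given in the sources used here. Estimated counts and TPM were made and deposited by the authors, per the file headers. A further 18 per-library columns were not used. One Vector title has transposed letters, and its column was assigned from the number it carries, as the remaining Vector titles fit their own columns.

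Estimated counts were rounded, genes kept by filterByExpr (12924 of 17083) and libraries scaled by TMM. All 9 libraries entered edgeR 4.0.16 (glmQLFit robust, glmQLFTest, 6 residual degrees of freedom) with the group as the only term. P-values are two-sided, and genes were called at a Benjamini-Hochberg adjusted p below 0.05 over all tested genes. Alternatives used DESeq2 1.42.0, limma 3.58.1 on log2(TPM + 1) and log2(TPM + 0.1) where TPM averaged at least 1, other filters and scaling, a replicate term, the 6 libraries compared, and each library left out. Removal of GC and length trends (loess, span 0.3, GENCODE release 29 transcripts, 12852 genes) was added after seeing the data. The main fit was tested on simulated counts with planted changes, which held no deviating library and no GC trend. That test therefore does not cover how such features bear on the calls here. R 4.3.3 and Python 3.11.15 were used.

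The members and lists were chosen with earlier results of these data known. The text names all members, PLK2, each called gene of a list and otherwise its 2 genes with the smallest p in PLK2 against Vector, and the 3 genes most like IKBKB and MAP3K7. OTUD7B and BIRC2 stand for the list on NIK control. Marker genes are given to describe the cells, in CPM without the TMM factors. T cell, fibroblast and endothelial markers summed to at most 1.67, 13.3 and 0.872 CPM in any library. Levels rest on counting, and totals of 14288165 to 16510186 estimated counts set the precision.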

Additional observations from a re-analysis of the deposited data

How the results depend on the processing

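Of 188 member values recomputed per comparison, 178 kept their direction for PLK2 over Vector, 177 for PLK2(D223N) over Vector and 177 for PLK2 over PLK2(D223N), and 4, 0 and 2 were called. The 66 genes called between PLK2 and Vector (62 higher, 4 lower) became 143 with the DESeq2 Wald test, 136 without a filter, 23 with the 6 libraries compared, 25 on log2(TPM + 1), 18 on log2(TPM + 0.1) and 379 (252 higher, 127 lower) with GC and length trends removed, and ran from 13 to 1656 with a library left out. The 3 for PLK2(D223N) against Vector became 9 with DESeq2, 5 without a filter and 8 with trends removed, and ran from 2 to 347. The 21 for PLK2 against PLK2(D223N) became 37 with DESeq2, 35 without a filter, 502 (374 higher, 128 lower) with 6 libraries, 8 and 5 on the TPM scales and 92 with trends removed, and ran from 9 to 317. Extremes came without Vector replicate 2 (1656 and 347), Vector replicate 1 (317), PLK2 replicate 2 (13) and PLK2(D223N) replicate 2 (9). Called members in the test of the 3 groups together ran from 0 to 3 of 10 with a library left out, beside 0.0846 to 6.77% of all genes. The cause of these moves was not tested.

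Some values changed sign. With trends removed, PLK2 over Vector was -0.0062 for CHUK, -0.024 for MAP3K7 and 0.019 for MAP3K14. PLK2(D223N) over Vector was -0.011 for CHUK, -0.018 for TBK1 and -0.0068 for TAB3, and PLK2 over PLK2(D223N) was 0.0014 for IKBKG. PLK2 over PLK2(D223N) was -0.012 for CHUK on both TPM scales, -0.026 and -0.027 for TAB3, and 0.0051 for MAP3K7 without a filter. With a library left out, PLK2 over Vector ran from -0.051 to 0.097 for IKBKB, -0.33 to 0.11 for IKBKE, -0.0077 to 0.17 for MAP3K7 and -0.11 to 0.070 for MAP3K14. PLK2(D223N) over Vector ran from -0.0096 to 0.21 for CHUK, -0.0030 to 0.14 for IKBKB, -0.056 to 0.14 for TBK1, -0.068 to 0.37 for IKBKE, -0.0034 to 0.18 for MAP3K7, -0.16 to 0.025 for TAB1 and -0.030 to 0.15 for MAP3K14. PLK2 over PLK2(D223N) ran from -0.11 to 0.071 for IKBKG, -0.029 to 0.038 for MAP3K7 and -0.0051 to 0.053 for TAB3. IKBKE fell under the TPM minimum and has no TPM fit.

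Replicate numbers were not treated as pairs, since the titles do not say that they mark a shared batch. Deviations of same-numbered libraries correlated between -0.107 and 0.126, and those of differently numbered libraries between -0.206 and 0.114. With the replicate block 76, 4 and 20 genes were called in PLK2 against Vector, PLK2(D223N) against Vector and PLK2 against PLK2(D223N), and 0 members. IKBKE had the fewest counts of the members and the widest intervals, and depth limits what can be said of it most.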
